A study of Mus musculus with 17 samples.

Results

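The Sonic hedgehog pathway was read out through 9 of its genes, out of 31438 genes summed from the transcript tables. They are the receptors and transducers Ptch1, Boc, Smo, Sufu and Gli2 and the targets Gli1, Hhip, Mycn and Sfrp1. The genes were chosen by name as listed receptors, transducers and targets, with earlier results of these data known. All 9 passed the filter on low counts in every comparison.

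Sonic hedgehog is a secreted protein that Purkinje cells of the postnatal cerebellum release and that granule neuron progenitors, the dividing precursors of the granule neurons, receive. Without ligand, the receptor Patched holds the membrane protein Smoothened inactive. With ligand bound, Smoothened relieves the block that Sufu places on the Gli transcription factors, Gli proteins enter the nucleus, and target genes are transcribed, among them Gli1, Ptch1 and Hhip, whose products act back on the pathway, and Mycn, which drives progenitor division.

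RNA was measured in cerebella of C57BL/6 mice at postnatal day 3, after the meninges had been taken off, by sequencing poly-A selected RNA of 17 samples. All animals carried Math1-Cre, a recombinase of the granule neuron progenitor lineage, so other cells of the cerebellum may keep their loxP-flanked genes. The Atr/Bax/Bak group (5 samples) combined it with Atr-loxP/loxP, with Bax-loxP/loxP and with Bak--/-, and the Bax/Bak controls (4 samples) differed in lacking the Atr allele. The Atr/p53 group (5 samples) combined Math1-Cre with Atr-loxP/loxP and with p53-loxP/loxP, and the p53 controls (3 samples) had p53-loxP/loxP without the Atr allele. Atr encodes a checkpoint kinase of stalled replication forks. Bax and Bak open the mitochondrial membrane in apoptosis, and p53 is the transcription factor that arrests or kills cells with damaged DNA. By genotype every group, controls included, lacked a death pathway in the Math1 lineage, and Bak was absent from all cells of the first pair of groups. The labels name separate samples and say no more of them, so the spread behind each p-value is that between samples and may be technical.

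The 16 deep libraries held 42987953 to 100659645 estimated counts. Replicate 3 of the Atr/p53 group held 13601 counts and was left out, which leaves 4 libraries in that group. Levels are given as CPM, counts scaled to library size over the 16 libraries by the trimmed mean of M values (TMM), and replicates are numbered by accession. Bak1 stood at 0.283 to 0.607 CPM in Atr/Bax/Bak and 0.237 to 0.563 CPM in Bax/Bak libraries, against 32.6 to 41.6 CPM in Atr/p53 and 37.4 to 41.4 CPM in p53 libraries. Atr itself did not separate the genotypes, for a reason that was not tested. It stood at 35.8 to 43.5 CPM in Atr/Bax/Bak against 38.4 to 48.0 CPM in Bax/Bak libraries. In the p53 background it stood at 33.7 to 40.2 CPM in Atr/p53 against 36.3 to 38.3 CPM in p53 libraries. Replicate 2 of the Atr/p53 group stood apart: mitochondrially encoded RNAs took 9.02% of its counts, against 2.47% to 3.37% in the other 3 deep libraries of its group. Its root mean square log2 difference from its group was 0.391, against 0.210 to 0.344 in the other 15 libraries. It was also the lowest library of its group for 8 of the 9 genes, all but Boc. The Atr effect in the p53 background is therefore given with and without it for all but Ptch1 and Boc. For Ptch1 and Boc the range over left-out libraries is given below. The Atr/Bax/Bak samples carry names of a number series of their own, so in that background the genotype and this series cannot be told apart. All Atr/p53 samples share a number series with p53 control replicate 1, while p53 replicates 2 and 3 carry names of another series.

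Promoter sequences are shown for 3 genes, to set the letters of the pathway's own promoters beside the values that follow. With Atr deleted in the Bax/Bak background, Hhip rose and Gli2 and Mycn fell. Each run covers 250 bases before and 50 after the RefSeq start site, read 5′ to 3′ on the gene's strand, from GRCm38.p6. Capitals mark a Gli core motif in Gli2 and an E2F-like motif in Mycn.
Hhip, chr8:80057959-80058258, minus strand: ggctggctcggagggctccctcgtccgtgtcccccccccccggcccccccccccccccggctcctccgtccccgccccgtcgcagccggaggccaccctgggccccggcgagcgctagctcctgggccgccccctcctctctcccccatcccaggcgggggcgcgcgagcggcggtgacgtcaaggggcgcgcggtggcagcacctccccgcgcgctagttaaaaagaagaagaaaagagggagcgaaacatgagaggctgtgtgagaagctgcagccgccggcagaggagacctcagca
Gli2, chr1:119053570-119053869, minus strand: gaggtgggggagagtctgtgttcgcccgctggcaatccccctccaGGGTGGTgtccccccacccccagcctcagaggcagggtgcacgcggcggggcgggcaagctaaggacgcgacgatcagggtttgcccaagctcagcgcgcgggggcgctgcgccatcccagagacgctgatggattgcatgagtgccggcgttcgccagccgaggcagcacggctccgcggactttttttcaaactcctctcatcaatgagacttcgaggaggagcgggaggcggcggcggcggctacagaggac
Mycn, chr12:12941787-12942086, minus strand: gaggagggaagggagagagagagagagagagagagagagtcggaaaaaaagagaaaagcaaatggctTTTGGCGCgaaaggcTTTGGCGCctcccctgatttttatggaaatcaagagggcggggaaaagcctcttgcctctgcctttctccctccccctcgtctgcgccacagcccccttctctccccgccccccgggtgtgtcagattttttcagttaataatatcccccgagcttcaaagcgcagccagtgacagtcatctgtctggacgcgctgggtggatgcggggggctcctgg
Of the 9 genes, 6 had a promoter in the RefSeq table (Gli2, Smo, Hhip, Mycn, Ptch1 and Sufu). The Gli motif GACCACCCA, searched on both strands, was in 0 of these 6 and in 0.253% of 32851 promoters of the same length. Its core ACCACCC, which lies within the longer motif, was in 1 of the 6, Gli2, at -205 to -199 on the strand opposite to the gene, and in 4.61% of all promoters. TTTGGCGC, the letters of an E2F-like motif, stood in the Mycn promoter at -183 to -176 and at -168 to -161, and in 0.514% of all promoters; it was chosen for the search after these letters were seen. The E-box CACGTG was in 0 of the 6 and in 7.15% of all promoters. These matches describe the letters alone.

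Set per length, as TPM computed from the counts, Mycn, Gli1 and Gli2 kept nearly the same rank in all groups, while the order of other genes differed. Mycn ranked 1 or 2 of the 9 in each of the 16 libraries, at 82.1 ± 5.58 TPM (SD, n = 5) in Atr/Bax/Bak against 108 ± 10.4 TPM (n = 4) in Bax/Bak libraries. Sfrp1, Smo, Sufu and Ptch1 took ranks between 1 and 5, in an order that differed between groups. Sfrp1 averaged 109.7 ± 8.63 TPM in Bax/Bak libraries, close to Mycn. In Atr/Bax/Bak libraries it averaged 51.3 ± 2.47 TPM, below the means of Smo, Sufu and Ptch1. Gli1 ranked 6 and Gli2 ranked 7 in every library, and Hhip and Boc shared the last 2 ranks. In the p53 controls the means ran from 97.1 TPM for Mycn through 62.9 for Sfrp1, 62.2 for Smo, 51.6 for Ptch1 and 48.0 for Sufu to 26.4 for Gli1, 21.2 for Gli2, 6.47 for Hhip and 1.22 for Boc. Among the neighbours in that order Sfrp1 and Smo, and Ptch1 and Sufu, lay within each other's SD.

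**Figure D1:**
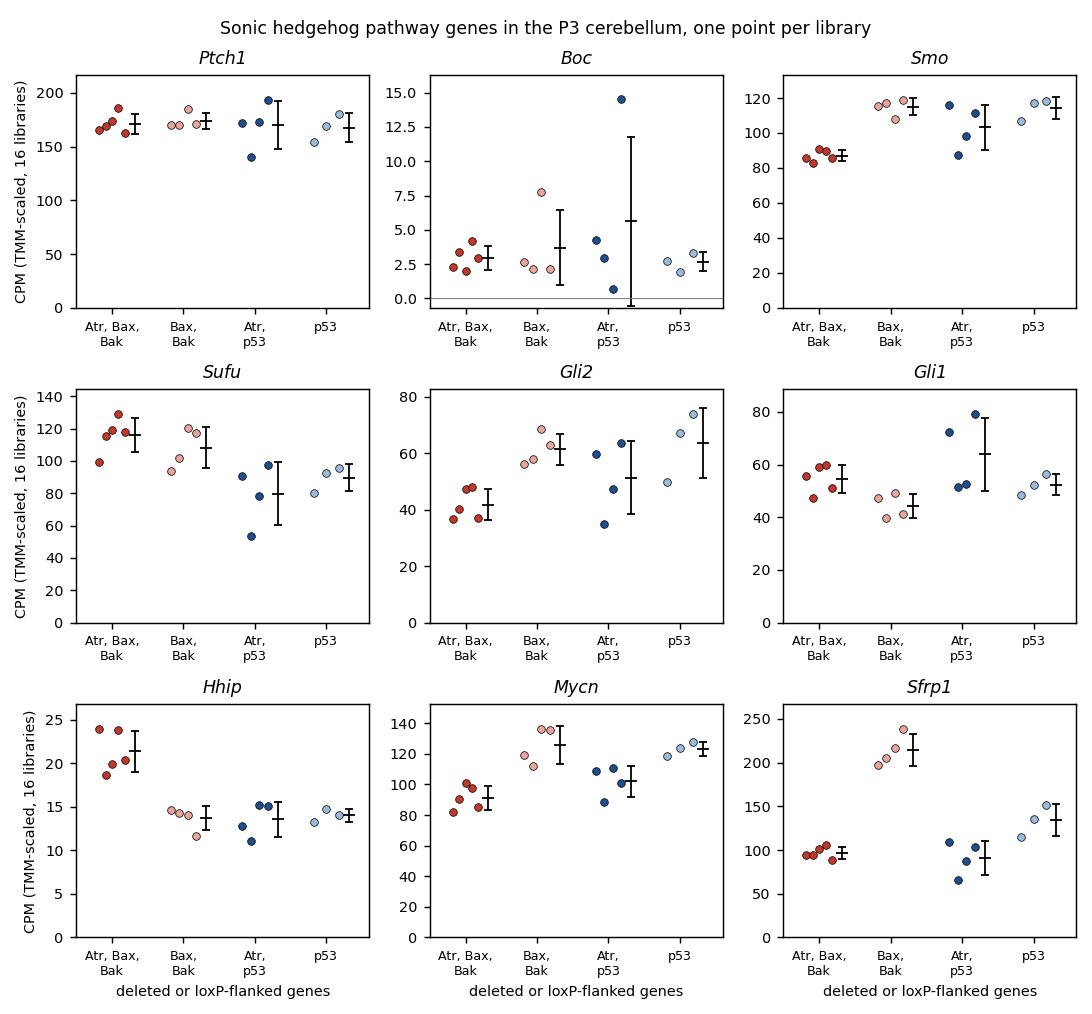
Levels of the 9 genes in CPM (vertical axes, linear) for the 4 genotype groups (horizontal axes), with a point for each of the 16 deep libraries and a bar for the mean ± SD. In the Bax/Bak background Hhip stood higher and Gli2, Smo, Mycn and Sfrp1 stood lower in every Atr/Bax/Bak library than in every Bax/Bak library, while Ptch1 overlapped in both backgrounds.

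The first comparison asked what Atr deletion did to the pathway in cerebella whose Math1 lineage, by genotype, lacked Bax and Bak. The targets did not move together: Hhip rose 1.58-fold and Gli1 1.25-fold, Ptch1 was not shown to change, and Mycn and Sfrp1 fell. Of the transducers, Smo and Gli2 fell. Of the 9 genes 2 rose, 4 fell and 3 were not called at an edgeR adjusted p below 0.05, where 44.5% of all 17405 genes tested were called, 22.5% higher and 22% lower. Since so large a share of all genes moved, the count of 6 in 9 says little by itself, and what follows rests on the single genes. The median of the 9 log2 fold changes was -0.31, against 0.04 over all genes tested. That median is the value of Boc, a gene of few counts that was not called (SE 0.409). Boc ran from -0.54 to 0.36 over left-out libraries, and the next value above it was that of Ptch1, at -0.01. The median therefore does not describe a shift shared by the genes.

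Ptch1 encodes the Sonic hedgehog receptor and is itself a target of Gli proteins. It stood at 165, 169, 174, 186 and 163 CPM in the Atr/Bax/Bak libraries, against 170.5, 170.0, 185 and 171 CPM in the Bax/Bak libraries. The groups lay on top of each other, and the log2 fold change of -0.01 had a 95% interval of -0.11 to 0.10 (edgeR adjusted p = 0.919). Boc, a co-receptor that presents the ligand, had few counts, at 2.28, 3.36, 2.00, 4.22 and 2.92 CPM in Atr/Bax/Bak libraries and at 2.67, 2.16, 7.77 and 2.15 CPM in Bax/Bak libraries. Its groups overlapped, and the log2 fold change of -0.31 ± 0.409 (SE) was not called (adjusted p = 0.575).

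Smo encodes Smoothened, the transducer that every hedgehog signal passes through. It stood at 86.0, 82.8, 91.0, 89.6 and 85.7 CPM in Atr/Bax/Bak libraries, against 116, 117, 108 and 119 CPM in Bax/Bak libraries. All 5 Atr-deleted libraries lay below all 4 controls, and Smo fell by 0.39 ± 0.0442 on the log2 scale (SE, adjusted p = 5.71e-05). Groups that do not overlap were found for 5 of the 9 genes, and for 38.3% of all genes tested, 17.1% higher and 21.2% lower.

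Gli2, the main activator among the Gli factors, stood at 36.6, 40.3, 47.2, 48.1 and 36.9 CPM in Atr/Bax/Bak libraries and at 56.2, 57.9, 68.5 and 62.8 CPM in Bax/Bak libraries. Here too the groups did not overlap, with a log2 fold change of -0.54 ± 0.0953 (adjusted p = 0.00107). Sufu encodes the inhibitor that holds Gli proteins in the cytoplasm. It stood at 99.5, 116, 119, 129 and 118 CPM in Atr/Bax/Bak libraries, against 94.0, 102, 120.2 and 117 CPM in Bax/Bak libraries, overlapping groups with a log2 fold change of 0.12 ± 0.0861 (adjusted p = 0.291). The verdict on Sufu depended on the controls: it was called higher against replicates 1 and 2 alone (0.26, adjusted p = 0.0377), which share a number series, and stood at -0.06 against replicates 3 and 4 alone (adjusted p = 0.555).

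Gli1, a target whose product amplifies the response, stood at 55.5, 47.3, 59.0, 59.8 and 51.0 CPM in Atr/Bax/Bak libraries, against 47.1, 39.7, 49.1 and 41.1 CPM in Bax/Bak libraries. It was higher with Atr deleted, but the groups overlapped in the range of 47.3 to 49.1 CPM, and the log2 fold change was 0.32 ± 0.0838 (adjusted p = 0.00972). The call was lost without Bax/Bak replicate 2 (0.22, adjusted p = 0.0676), against replicates 3 and 4 alone (0.25, adjusted p = 0.0677) and in a joint fit of all groups (0.30, adjusted p = 0.065). Because Gli1 was higher and Gli2 lower, the ratio of Gli1 to Gli2 in TPM was 2.05 ± 0.199 in Atr/Bax/Bak libraries (1.87 to 2.36) against 1.10 ± 0.108 in Bax/Bak libraries (1.002 to 1.25).

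Hhip, a membrane protein that binds and sequesters the ligand and is itself a target of the pathway, was the gene of the 9 that rose most. It stood at 23.9, 18.7, 20.0, 23.8 and 20.4 CPM in Atr/Bax/Bak libraries, against 14.7, 14.3, 14.1 and 11.6 CPM in Bax/Bak libraries. All 5 Atr/Bax/Bak libraries lay above all 4 controls, and Hhip rose by 0.66 ± 0.0952 on the log2 scale (adjusted p = 0.000238). Set against the receptor, the ratio of Hhip to Ptch1 in TPM was 0.192 ± 0.0251 in Atr/Bax/Bak and 0.111 ± 0.0122 in Bax/Bak libraries.

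Mycn encodes the transcription factor through which the pathway drives the division of progenitors. It stood at 82.1, 90.6, 101, 97.8 and 85.2 CPM in Atr/Bax/Bak libraries, against 119, 112, 136.2 and 135.8 CPM in Bax/Bak libraries. The groups did not overlap, and Mycn fell by 0.45 ± 0.0769 on the log2 scale (adjusted p = 0.000825). Sfrp1 encodes a secreted Wnt-binding protein and is listed here as a target. It showed the largest difference of the 9, at 94.27, 94.25, 101, 106 and 88.5 CPM in Atr/Bax/Bak libraries against 197, 205, 217 and 238 CPM in Bax/Bak libraries. The highest Atr/Bax/Bak library lay below the lowest Bax/Bak library, and Sfrp1 fell by 1.13 ± 0.0656 on the log2 scale, 2.19-fold (adjusted p = 1.03e-06).

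**Figure D2:**
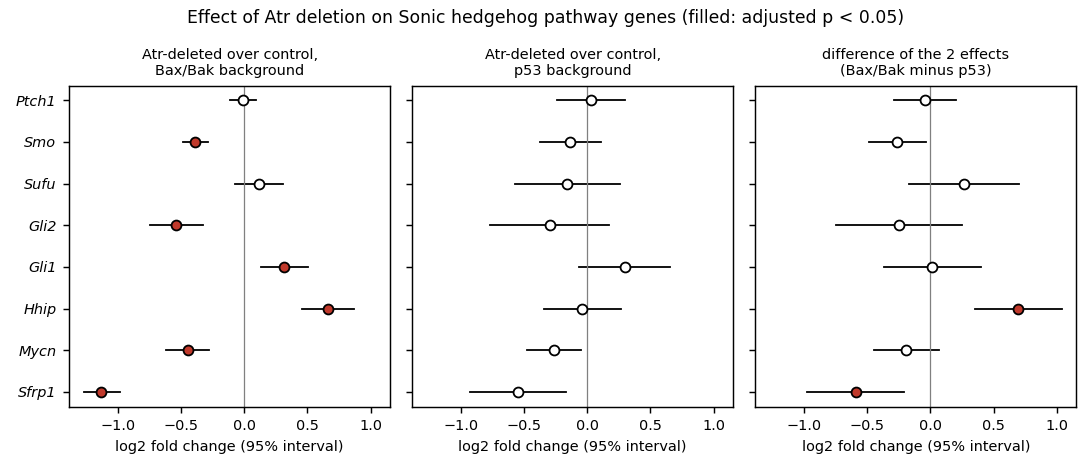
Log2 fold changes (horizontal axes, with 95% intervals) of 8 genes for Atr deletion in the Bax/Bak background, in the p53 background and for the difference between both effects. Boc is left out because its interval spans several log2 units. Filled points passed an adjusted p of 0.05: Hhip, Gli1, Gli2, Smo, Mycn and Sfrp1 in the Bax/Bak background, 0 in the p53 background, and Hhip (0.70) and Sfrp1 (-0.59) for the difference.

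A further 40 genes of the pathway were grouped by role. In the Bax/Bak background 20 were not called, 11 rose and 9 fell, which is near the called share of all genes tested (44.5%), with a median log2 fold change of 0.0071, against 0.04 over all genes. Of 8 genes of ligands and their release 4 rose and 0 fell. Among them were Scube2 and Scube1, whose products help release the lipid-bearing ligand. Scube2 averaged 60.8 ± 5.87 CPM in Atr/Bax/Bak and 34.5 ± 4.65 CPM in Bax/Bak libraries (0.84, adjusted p = 6.36e-05). Scube1 averaged 43.7 ± 2.76 CPM in Atr/Bax/Bak and 28.9 ± 2.41 CPM in Bax/Bak libraries (0.61, adjusted p = 3.92e-05). The other 2, named after their values were seen, were the ligands Shh and Dhh. Shh averaged 6.79 ± 0.466 CPM in Atr/Bax/Bak and 4.82 ± 0.398 CPM in Bax/Bak libraries (0.51, adjusted p = 0.00152), and Dhh 0.898 ± 0.208 CPM in Atr/Bax/Bak and 0.328 ± 0.293 CPM in Bax/Bak libraries (1.56 ± 0.537, adjusted p = 0.0356). The Dhh groups overlapped. In the p53 background edgeR called neither Shh (0.25, adjusted p = 0.866) nor Dhh (0.04, adjusted p = 0.988). The difference between backgrounds was not called by edgeR for Shh (0.26, adjusted p = 0.545) or Dhh (1.49, adjusted p = 0.194). Of 4 receptors and co-receptors 0 rose and 1 fell, Gas1, a co-receptor, at 21.3 ± 1.48 CPM in Atr/Bax/Bak against 31.1 ± 2.41 CPM in Bax/Bak libraries (-0.53, adjusted p = 0.000137).

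Of 11 further transducers and cilium genes 4 rose and 0 fell; smallest in p were Kif7, a kinesin of the cilium tip (0.44, adjusted p = 0.000233), and Iqce, a protein of the ciliary base (0.26, adjusted p = 0.00308). Of 10 inhibitors 3 rose and 3 fell. Btrc, a ubiquitin ligase subunit that acts on Gli proteins (0.21, adjusted p = 0.00529), and Mgrn1, a ubiquitin ligase (0.15, adjusted p = 0.0218), rose. Cul3 (-0.29, adjusted p = 0.000407) and its adaptor Spop (-0.14, adjusted p = 0.00665) fell. Of 7 targets 0 rose and 5 fell; smallest in p were E2f1 (-1.23, adjusted p = 4.96e-06) and Foxm1 (-0.64, adjusted p = 4.5e-05), both transcription factors of the cell cycle. E2f1 averaged 23.6 ± 2.48 CPM in Atr/Bax/Bak and 56.0 ± 6.36 CPM in Bax/Bak libraries.

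**Figure D3:**
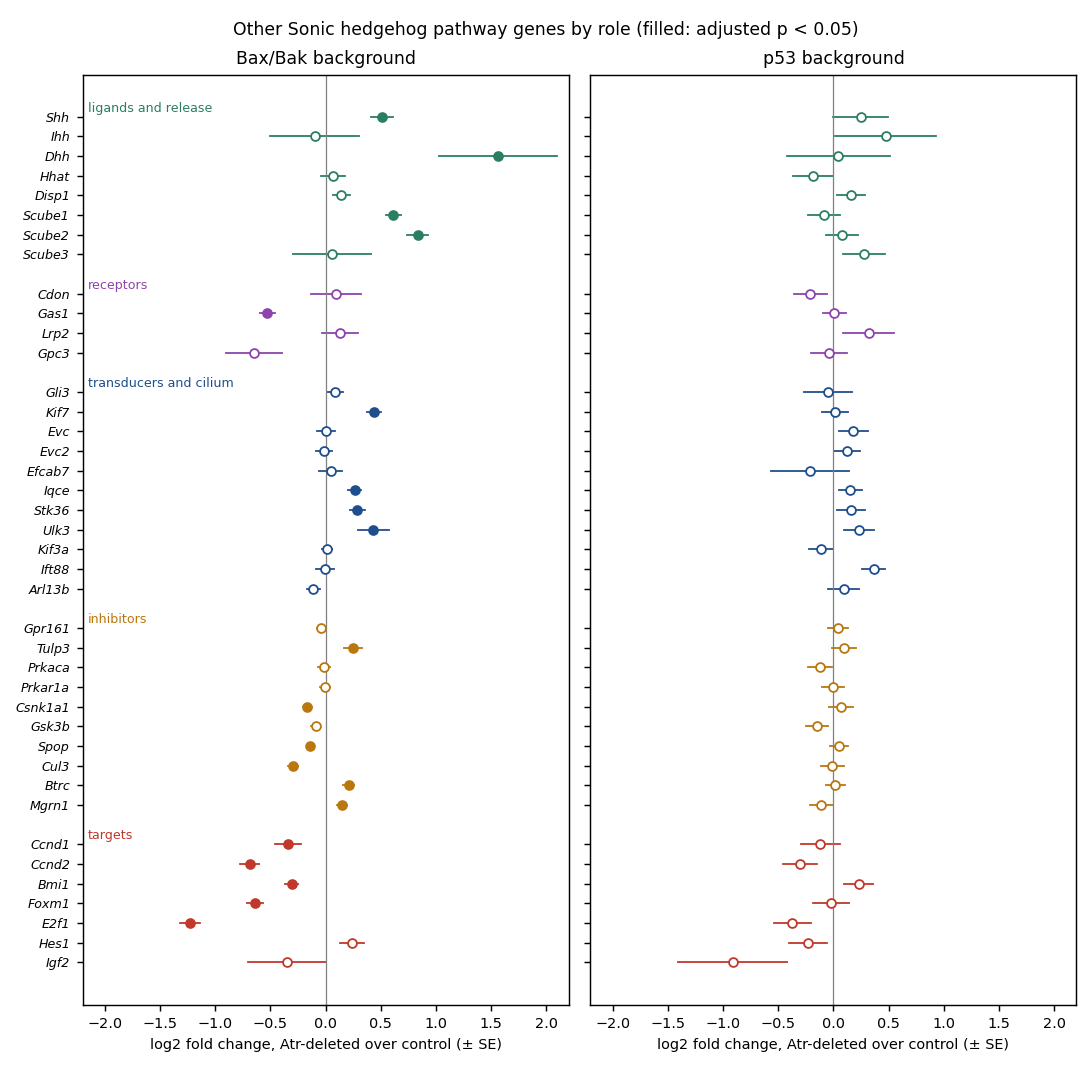
Log2 fold changes ± SE of Atr-deleted over control libraries (horizontal axes) for the 40 further pathway genes, grouped by role, in the Bax/Bak background (left) and the p53 background (right). Filled points passed an adjusted p of 0.05: 11 rose and 9 fell in the Bax/Bak background, and 0 were called in the p53 background.

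Markers of whole cell types moved in the same comparison. Of 12 markers of dividing cells 12 fell, with Tyms (-1.03) and Rrm2 (-0.97) smallest in p, and of 9 markers of granule progenitors 0 rose and 8 fell, with Insm1 (-0.97) and Meis1 (-0.42) smallest in p. Summed levels of the dividing cell markers were 930.5 to 1146 CPM in Atr/Bax/Bak libraries against 1825 to 2032 CPM in Bax/Bak libraries, and those of the granule progenitor markers were 1601 to 1817 CPM in Atr/Bax/Bak against 2106 to 2657 CPM in Bax/Bak libraries. Of 11 granule neuron markers 1 rose and 5 fell, with sums of 2818 to 3152 CPM in Atr/Bax/Bak and 3820 to 4525 CPM in Bax/Bak libraries. Among the 15 glial markers (astrocytes and Bergmann glia) 13 rose, Gdf10 (1.34) and Sox9 (0.65) smallest in p among them, and 1, Fabp7 (-0.15), fell, with sums of 6531 to 8031 CPM in Atr/Bax/Bak against 4918 to 5334 CPM in Bax/Bak libraries. Of 12 Purkinje cell markers 9 rose and 0 fell, with sums of 2848 to 4024 CPM in Atr/Bax/Bak against 2371 to 2755 CPM in Bax/Bak libraries. Mitochondrially encoded RNAs took 3.53% to 4.35% of counts in Atr/Bax/Bak and 1.81% to 2.55% in Bax/Bak libraries. None of the markers was at 0 in a deep library. In bulk tissue, fewer cells of a type and less RNA per cell cannot be told apart, and the part of these marker shifts in the values of the 9 genes was not tested.

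**Figure D4:**
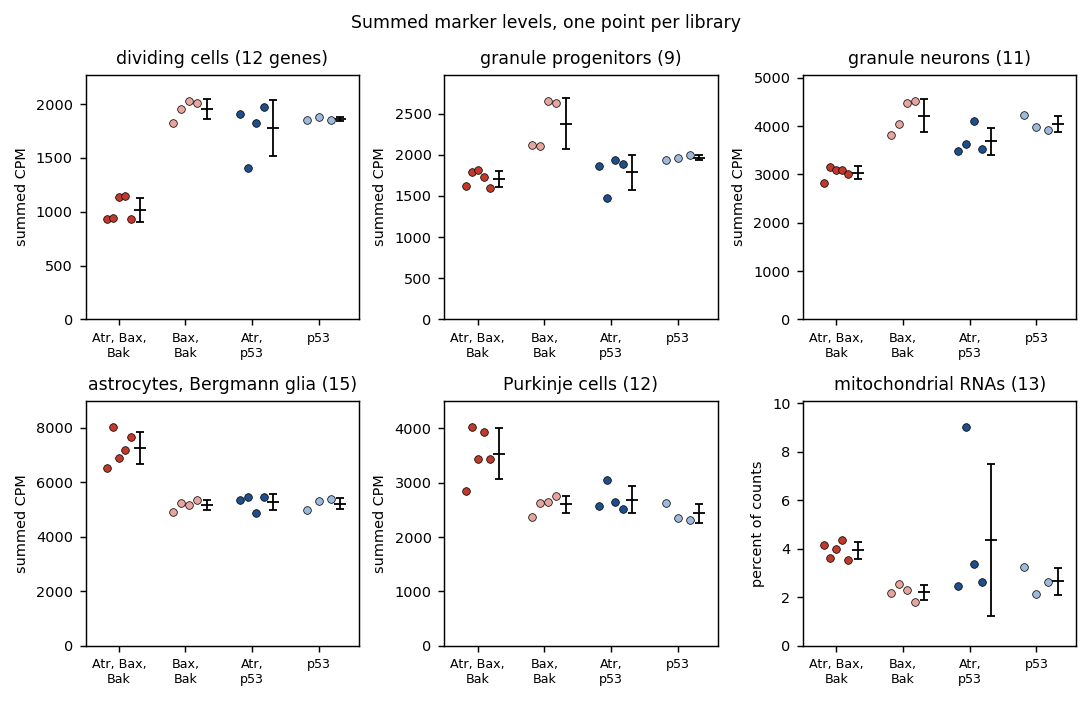
Summed CPM of 5 marker lists and the share of counts from 13 mitochondrially encoded RNAs (vertical axes, linear) by genotype group, with a point for each of the 16 deep libraries and a bar for the mean ± SD. Dividing cell and progenitor markers were lower and glial and Purkinje markers higher in Atr/Bax/Bak than in Bax/Bak libraries, and Atr/p53 replicate 2 had the highest mitochondrial share, 9.02%.

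The second comparison asked the same of Atr deletion in cerebella whose Math1 lineage, by genotype, lacked p53. None of the 9 genes was called by edgeR, and 0.0461% of 17348 genes were (8 genes, all higher). At an unadjusted p below 0.05 there were 2 of the 9, Sfrp1 and Mycn, where 6.58% of all genes reached that level; DESeq2 and limma-voom also called 0 of the 9. Sfrp1 stood at 109, 65.8, 86.9 and 103 CPM in Atr/p53 libraries, against 115, 136 and 152 CPM in p53 libraries. Every Atr/p53 library was below every control, with a log2 fold change of -0.55 ± 0.17 and an adjusted p of 0.582, and without replicate 2 it was -0.42 (adjusted p = 0.445). Mycn stood at 109, 88.6, 111 and 101 CPM in Atr/p53 libraries and at 119, 124 and 128 CPM in p53 libraries. Its groups did not overlap either, with a log2 fold change of -0.26 ± 0.095 (adjusted p = 0.677) and of -0.20 without replicate 2 (adjusted p = 0.463). Sfrp1 and Mycn were the 2 of the 9 genes whose groups did not overlap, as held for 8.21% of all genes and, in the lower direction, for 4.62%. For both genes p53 replicate 1 was the lowest control, and it is the only control of the Atr/p53 number series. The part of the number series in these differences was not tested.

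For the other targets the groups overlapped. Hhip stood at 12.7, 11.1, 15.3 and 15.1 CPM in Atr/p53 libraries, against 13.3, 14.7 and 14.1 CPM in p53 libraries, and its log2 fold change of -0.04 had a 95% interval of -0.34 to 0.27 (adjusted p = 0.96). The rise of 0.66 seen in the Bax/Bak background lies outside that interval. Without replicate 2 the value was 0.05 (adjusted p = 0.944). Gli1 stood at 72.3, 51.6, 52.5 and 79.1 CPM in Atr/p53 libraries and at 48.4, 52.2 and 56.6 CPM in p53 libraries. Replicates 1 and 5 lay above all controls and replicates 2 and 4 among them, with a log2 fold change of 0.30 ± 0.161 (adjusted p = 0.806) and of 0.39 without replicate 2 (adjusted p = 0.583). Ptch1 stood at 172, 140.3, 173 and 194 CPM in Atr/p53 libraries, against 154, 169 and 180.2 CPM in p53 libraries (0.03, adjusted p = 0.967).

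The transducers spread more widely in the Atr/p53 group than in any other, with replicate 2 at the low end. Gli2 stood at 59.8, 34.9, 47.2 and 63.4 CPM in Atr/p53 libraries and at 49.9, 67.1 and 73.7 CPM in p53 libraries (-0.30, adjusted p = 0.844). Smo stood at 116, 87.6, 98.3 and 112 CPM in Atr/p53 libraries, against 107, 117 and 118 CPM in p53 libraries (-0.13, adjusted p = 0.848). For both, the value came closer to 0 without replicate 2, at -0.15 for Gli2 (adjusted p = 0.867) and -0.06 for Smo (adjusted p = 0.896). Sufu stood at 90.6, 53.4, 78.0 and 97.2 CPM in Atr/p53 libraries, against 80.3, 92.8 and 95.8 CPM in p53 libraries, and its log2 fold change was -0.16 with replicate 2 (adjusted p = 0.877) and -0.0043 without it (adjusted p = 0.997). Boc ran from 0.671 CPM in replicate 4 to 14.6 CPM in replicate 5 of the Atr/p53 group, beyond both ends of the p53 controls at 1.93 to 3.31 CPM, and was not called (1.09 ± 0.898, adjusted p = 0.852).

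The ratio of Gli1 to Gli2 in TPM, in which the depth of a library cancels, was 1.91 ± 0.192 in Atr/p53 libraries (1.71 to 2.15) and 1.27 ± 0.194 in p53 libraries (1.13 to 1.49). Here the groups did not overlap, although neither gene was called alone. The highest Atr/p53 ratio was that of replicate 2, with 20.5 TPM of Gli1 and 9.53 TPM of Gli2. The highest control ratio was that of p53 replicate 1 (23.4 and 15.7 TPM), the only control of the Atr/p53 number series. The part of that series in the ratio was not tested. The ratio was computed with the levels known and carries no test. Of the 40 further pathway genes 0 were called and 1 reached an unadjusted p below 0.05, Ift88, an intraflagellar transport protein of the cilium (0.36, adjusted p = 0.541). In the remaining roles the genes of smallest p were Scube3 (0.28, adjusted p = 0.844), Cdon (-0.21, adjusted p = 0.844), Gsk3b (-0.15, adjusted p = 0.844) and E2f1 (-0.37, adjusted p = 0.762). None of the marker lists had a called gene, which says little where 0.0461% of all genes were called. Smallest in p were Nhlh1 of the granule progenitors (-0.53, adjusted p = 0.618), Rrm2 of the dividing cells (-0.35, adjusted p = 0.725) and Slc4a4 of the glia (-0.34, adjusted p = 0.699). By edgeR 3 of 9 granule progenitor markers, all lower, reached an unadjusted p below 0.05. So did 1 of 12 dividing cell and 2 of 15 glial markers, against 6.58% of all genes. Granule progenitor markers summed to 1472 to 1938 CPM in Atr/p53 libraries, replicate 2 lowest, and 1931 to 1993 CPM in p53 libraries. Dividing cell markers summed to 1407 to 1975 CPM in Atr/p53 and 1850 to 1884 CPM in p53 libraries, and astrocyte and Bergmann glia markers to 4861 to 5479 CPM in Atr/p53 and 4976 to 5393 CPM in p53 libraries.

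Whether the effect of Atr deletion differed between the backgrounds was tested as an interaction over the 16 libraries, the effect in the Bax/Bak background minus that in the p53 background. It was called for 2 of the 9 genes, Hhip and Sfrp1, 1 in each direction, and for 16.2% of 18166 genes, 8.06% higher and 8.09% lower. Hhip differed by 0.70 ± 0.161 on the log2 scale (95% interval 0.36 to 1.04, adjusted p = 0.00846). Its log2 fold change was 0.66 in the Bax/Bak background and -0.04 in the p53 background. The call held without Atr/p53 replicate 2 (0.61, adjusted p = 0.00869) and was lost with p53 control replicate 1 alone (0.61, adjusted p = 0.153), the control that shares its number series with the Atr/p53 libraries. Sfrp1 differed by -0.59 ± 0.181 (95% interval -0.97 to -0.21, adjusted p = 0.0364), and this call was less settled, since it was lost when any of 9 of the 16 libraries was left out (adjusted p up to 0.083).

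For Smo the difference of -0.26 ± 0.107 was not called (adjusted p = 0.108), but was called at -0.33 without Atr/p53 replicate 2 (adjusted p = 0.0109). For the other 6 genes the difference was not called. Gli1 differed by 0.02 (95% interval -0.37 to 0.40, adjusted p = 0.973), Ptch1 by -0.04 (-0.29 to 0.21, adjusted p = 0.857) and Mycn by -0.19 (-0.45 to 0.07, adjusted p = 0.317). The intervals were wider for Gli2 at -0.25 (-0.75 to 0.25, adjusted p = 0.528), Sufu at 0.27 (-0.17 to 0.71, adjusted p = 0.414) and Boc at -1.41 (-3.50 to 0.69, adjusted p = 0.366), and a difference of the size called for Hhip lies within each of them.

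Of the 40 further genes 3 differed in the higher and 4 in the lower direction, a share near the 16.2% of all genes, so the count says little by itself. The ligand release genes Scube1 (0.69, adjusted p = 0.007) and Scube2 (0.75, adjusted p = 0.00823) and the cilium kinesin Kif7 (0.42, adjusted p = 0.0238) were higher in the interaction. Gas1 (-0.54, adjusted p = 0.00701) and the targets E2f1 (-0.86, adjusted p = 0.00741), Bmi1, a Polycomb protein of progenitor self-renewal (-0.54, adjusted p = 0.0152), and Foxm1 (-0.62, adjusted p = 0.023) were lower. Gas1 averaged 21.3 ± 1.48 CPM in Atr/Bax/Bak and 31.1 ± 2.41 CPM in Bax/Bak libraries, and 33.5 ± 3.69 CPM in Atr/p53 and 33.5 ± 2.23 CPM in p53 libraries. No further inhibitor was called, with Cul3 smallest in p (-0.29, adjusted p = 0.0676). In the same test 11 of 12 dividing cell markers were lower, Bub1 (-1.27) and Tyms (-0.88) smallest in p, as was 1 of 9 granule progenitor markers, Pax6 (-0.63). Of the 15 glial markers 9 were higher, Gdf10 (1.21) and Aldoc (0.78) smallest in p; their part in the result was not tested.

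Set side by side, the backgrounds differed in Hhip among Atr-deleted libraries and in Sfrp1 among controls. Among Atr-deleted libraries 3 of the 9 genes differed between Atr/Bax/Bak and Atr/p53, where 47.2% of 18166 genes did. Hhip was higher in every Atr/Bax/Bak than in every Atr/p53 library (0.66 ± 0.107, adjusted p = 0.000103), as was Sufu (0.54 ± 0.137, adjusted p = 0.00397); groups so placed were found for 21.1% of all genes. Smo was lower in Atr/Bax/Bak than in Atr/p53 libraries, with overlap (-0.25 ± 0.0702, adjusted p = 0.00785). Sfrp1 was not called, at 96.8 ± 6.73 CPM in Atr/Bax/Bak and 91.3 ± 19.4 CPM in Atr/p53 libraries (0.08, 95% interval -0.17 to 0.34, adjusted p = 0.594). Without Atr/p53 replicate 2, 6 of the 9 were called, where 4393 of all genes were higher and 4237 lower. With it, 4418 of all genes were higher and 4149 lower. So large a share of all genes was called that these counts among the 9 say little by themselves. Of the 40 further pathway genes 7 were higher and 9 lower in Atr/Bax/Bak than in Atr/p53 libraries.

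Among controls 1 of the 9 genes differed between Bax/Bak and p53 libraries, where 18% of genes did. That gene was Sfrp1, at 214 ± 17.96 CPM in Bax/Bak and 134 ± 18.3 CPM in p53 libraries (0.67 ± 0.138, adjusted p = 0.00415), and its groups did not overlap, as held in the higher direction for 15.2% of genes. Hhip (-0.04, adjusted p = 0.851), Smo (0.01, adjusted p = 0.938) and Sufu (0.27, adjusted p = 0.239) were not called. Of the 40 further pathway genes 3 were higher and 0 lower in Bax/Bak than in p53 libraries. Each background was deposited as a table of its own, so background and table cannot be told apart in these differences between backgrounds.

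The transcripts behind these sums showed which RNA carried each value. Gli1, Boc and Sfrp1 were measured through 1 transcript each, and for Gli2, Smo and Sufu a single form held most of the level. Hhip was higher in both its forms: the 9074-base Hhip-201 stood at 18.2 ± 2.13 CPM in Atr/Bax/Bak and 11.8 ± 1.13 CPM in Bax/Bak libraries, and the 1173-base Hhip-202 at 3.17 ± 0.532 CPM in Atr/Bax/Bak and 1.83 ± 0.394 CPM in Bax/Bak libraries. Mycn was split between a pair of forms of similar length. Mycn-201 stood at 54.6 ± 6.82 CPM in Atr/Bax/Bak against 82.7 ± 12.96 CPM in Bax/Bak libraries, and Mycn-202 at 36.3 ± 5.73 CPM in Atr/Bax/Bak against 42.7 ± 1.93 CPM in Bax/Bak libraries. How reads were divided among forms was estimated by the authors' tool, and single forms were not tested. The genes shared at most 0.806% of their 31-base words with other genes. Gli1 (chromosome 10, 127329882 to 127341974, GRCm38) overlaps Arhgap9 on the opposite strand, with 0.795% of its words shared, and whether the authors' counting used strand is not given in the sources used here.

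Genes whose levels followed the called genes most closely over the 16 libraries were found by the root mean square difference of centred log2 CPM among 14510 genes. Nearest to Gli2 (0.332 around its own mean) were the replication licensing genes Cdt1 (0.102) and Mcm7 (0.102), then Plxnb2 (0.111). For Sfrp1 (0.529 around its mean) they were E2f2 (0.136), a transcription factor of the cell cycle, Ntn4 (0.185) and St18 (0.187), and for Mycn (0.226) Bcl2l13 (0.0672), Tbc1d16 (0.0844) and the cell cycle phosphatase Cdc25a (0.0883). Cdt1 averaged 21.5 CPM in Atr/Bax/Bak and 33.4 CPM in Bax/Bak libraries, and 28.4 CPM in Atr/p53 and 36.8 CPM in p53 libraries, the order of the groups for Gli2. Hhip (0.319) lay nearest to Lrrfip1 (0.117), Ercc5 (0.129) and Iqsec1 (0.134). Smo (0.193) was followed by Idh2 (0.0669), Isg20l2 (0.0696) and Cnot9 (0.0706), Sufu (0.304) by Fam53b (0.0763), Ttyh2 (0.0827) and Soga1 (0.0865), and Gli1 (0.247) by Ppan (0.117), Sema5b (0.123) and Khsrp (0.124). These distances describe likeness of level over libraries that share groups and scaling.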

How the data were processed

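RNA of whole P3 cerebella was sequenced as stranded poly-A libraries, per the labels' protocols. The authors' deposited tables, 1 for each background, hold estimated counts by Ensembl transcript and lane. The builds mm9 and GRCm38 and the tools edgeR and kallisto 0.42.4 come from the submitters' processing notes, with no roles given, and other steps are not given in the sources used here. Such estimated counts divide reads among similar transcripts, so counts of similar genes depend on that division.

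Lanes were added and genes were formed as sums of their transcripts in GENCODE M21 (GRCm38), with 92284 of 94080 identifiers matched; the rest held 0.779% to 1.04% of the counts of a deep library. Sums were rounded to whole numbers. The shallow Atr/p53 replicate 3, whose lane columns were identical, was left out. The Atr effect was fitted within each background in edgeR 4.0.16 under R 4.3.3 (TMM scaling, default expression filter, robust quasi-likelihood F-tests, Benjamini-Hochberg adjustment over all genes tested, threshold 0.05), and the interaction and background differences in a joint fit of 16 libraries. The SE is the size of the log2 fold change over the root of its F statistic. TPM and distances between genes (a mean of at least 1 CPM, 0.5 CPM added before log2) were computed from the same counts. The fits of the Atr effect and of the interaction were also run on simulated counts with known changes. Those counts held no number series and no outlying library, so they cannot test for either.

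The members and the gene lists were chosen with earlier results of these data known. Named genes are all 9 members, up to 2 genes of smallest p per direction of each pathway role and of the progenitor, dividing cell and glial lists, and the 3 nearest genes of each called member. Between backgrounds the lists are given as counts. Some pathway genes are not reported here. Foxm1 in the interaction and Shh and Dhh were named after their values were seen. Alternatives were 2 other scalings, 2 other filters, DESeq2 1.42.0, limma-voom (limma 3.58.1), a joint fit, each library left out, controls of 1 number series, and the shallow library included. Promoters are RefSeq sequences. Python 3.11.15, numpy 2.4.6, pandas 2.3.3 and matplotlib 3.10.9 made tables and figures.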

Additional observations from a re-analysis of the deposited data

Results flagged for a closer look

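The effect of Atr deletion on Hhip differed between the backgrounds by 0.696 on the log2 scale in edgeR's interaction test (adjusted p = 0.00846), with 21.4 ± 2.38 CPM in Atr/Bax/Bak and 13.7 ± 1.39 CPM in Bax/Bak libraries, and 13.6 ± 1.98 CPM in Atr/p53 and 14.0 ± 0.745 CPM in p53 libraries. The effect on Sfrp1 differed by -0.59 (adjusted p = 0.0364), with the backgrounds apart in the controls, at 214 CPM in Bax/Bak and 134 CPM in p53 libraries.

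In 27 groups of 4 or 5 libraries, 2 held a library far from its group, and chance alone gives about 1 in 20 groups. Both were Bax/Bak replicate 3. Ptch1 stood at 185 CPM there, against 170.0 to 171 CPM in the other Bax/Bak libraries. Boc stood at 7.77 CPM there, against 2.15 to 2.67 CPM in the others; the markers of meninges summed to 273 CPM in that library and to 247 to 689 CPM in the others.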

How the results depend on the processing

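In the Bax/Bak background Hhip, Smo, Gli2, Mycn and Sfrp1 kept direction and call under every alternative run, with 5 to 6 of the 9 genes called when a library was left out. Reversals there concerned genes that were not called. Ptch1 stood at 0.016 with upper-quartile scaling and 0.024 against Bax/Bak replicates 1 and 2 alone, and ran from -0.068 to 0.020 over left-out libraries. Sufu stood at -0.059 against replicates 3 and 4 alone. Boc, at -0.31 in the main fit, stood at 0.31 against replicates 1 and 2 alone. Its value ran from -0.54 to 0.36 over left-out libraries. In the p53 background the count of 8 genes became 14 without a filter, 128 with DESeq2, 4 with limma-voom, 23 with the shallow library, 5 against p53 replicate 1 alone, 70 in the joint fit and 2 to 13 over left-out libraries, with 0 of the 9 genes in each. Reversed were Gli2 (0.043) and Hhip (0.035) against p53 replicate 1 alone, an alternative chosen after seeing the data; over left-out libraries Ptch1 ran from -0.044 to 0.11, Hhip from -0.10 to 0.046 and Boc from -0.0068 to 1.46.

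The interaction's 2934 genes became 448 against p53 replicate 1 alone and 1634 to 3561 over left-out libraries. Its count of 2 among the 9 genes became 1 against Bax/Bak replicates 1 and 2 alone (Sfrp1 lost, adjusted p = 0.109), 1 with the shallow library (Sfrp1 lost, adjusted p = 0.0528), 0 against p53 replicate 1 alone and 1 to 3 over left-out libraries. Gli1 turned to -0.011 with a mean of at least 1 CPM, -0.059 against Bax/Bak replicates 3 and 4 alone and -0.10 against p53 replicate 1 alone, and ran from -0.074 to 0.13 over left-out libraries; Ptch1 ran from -0.12 to 0.027. Between Atr-deleted groups 3 to 6 of the 9 genes were called over left-out libraries, where 7642 to 8669 of all genes were. Sfrp1 ran from -0.044 to 0.18 there. Between controls 3271 genes became 1871 against Bax/Bak replicates 1 and 2 alone, 907 against p53 replicate 1 alone and 1883 to 4698 over left-out libraries; upper-quartile scaling moved the split from 1582 higher and 1689 lower to 1307 and 2203. There Hhip turned to 0.062 against Bax/Bak replicates 1 and 2 alone and 0.043 against p53 replicate 1 alone (-0.079 to 0.032 over left-out libraries), and Smo to -0.025 with upper-quartile scaling and -0.00094 with the shallow library (-0.033 to 0.056 over left-out libraries). The causes were not tested. No paired analysis was possible because the replicate numbers are accession order and the labels pair no samples across groups; the comparisons against controls of 1 number series, above, are the values within or between such series. At 3 to 5 libraries a group and its spread, the change of Boc was not resolved.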

Other observations

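Further marker lists describe the tissue in which the 9 genes were measured. With Atr deleted in the Bax/Bak background, 6 of 6 markers of inhibitory interneurons rose, with sums of 529 to 657 CPM in Atr/Bax/Bak and 338 to 410 CPM in Bax/Bak libraries. Of 7 markers of the oligodendrocyte lineage 5 rose and 1 fell, and of 7 microglia markers 5 rose and 0 fell. Of 7 endothelial markers 1 rose, and of 6 markers of meninges 0 were called by edgeR (1 at an unadjusted p below 0.05). In the p53 background 0 genes of these lists were called, and 3 of the oligodendrocyte lineage and 1 of microglia reached an unadjusted p below 0.05.

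The shallow library of the Atr/p53 group held 4 counts of Ptch1, 4 of Sufu and 1 of Smo, and the other 6 genes had none among its 13601 counts.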
